A study of Mus musculus with 6 samples.

Results

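The genes described here are 10 feedback inhibitors of the mitogen-activated protein kinase (MAPK) pathway. They are the MAPK phosphatases Dusp1, Dusp4, Dusp5 and Dusp6, the Sprouty genes Spry1, Spry2 and Spry4, the Sprouty-related genes Spred1 and Spred2, and Errfi1, which encodes an inhibitor of the EGF receptor. They were taken by symbol from a table of 21936 mouse genes, and 10 of the 10 were among the 11809 genes with enough counts to be tested. Messenger RNA was measured in PAM212, a mouse cell line labelled as keratinocytes, in 3 libraries of cells that overexpressed miR-28-3p after lentiviral infection (the mouse gene was used) and in 3 controls labelled as not treated. Cells of both groups grew in DMEM with serum, and the effects of infection and of the microRNA cannot be told apart, since no library is labelled as carrying an empty vector. No label says whether replicates are separate cultures, so their spread, on which every p-value rests, may be technical.

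Growth factor receptors switch on RAS, which activates RAF, MEK and finally the kinase ERK. Active ERK induces many of the genes that shut it off again. Dual-specificity phosphatases remove phosphate from MAP kinases, Sprouty and SPRED proteins act between receptor and RAF, and Errfi1 binds the kinase domain of the EGF receptor. Because several of these transcripts follow ERK activity, those are often read as a record of signalling through the pathway. In keratinocytes the pathway is fed largely by the EGF receptor and its ligands. A microRNA pairs through its seed, bases 2 to 8, with sites that lie mostly in 3' untranslated regions, and lowers the targeted messenger RNA or its translation.

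The mature arms of the mouse microRNA are shown first, since their seeds define the sites searched for in the members. They are the RefSeq entries of Mir28a on GRCm38.p6, at chr16:24827908-24827929 and chr16:24827868-24827889 on the plus strand, and capitals mark the seed. The labels name the 3p arm, and whether the lentivirus also yields the 5p arm was not given in the sources used here.
miR-28a-3p: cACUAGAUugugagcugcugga
miR-28a-5p: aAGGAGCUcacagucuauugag

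In the longest annotated 3' untranslated region of each gene (GENCODE M21, GRCm38), the 7-base match to the 3p seed, ATCTAGT, was held by 1 of the 10 members, Spred1, against 6.03% of 20702 genes searched. The shorter match to bases 2 to 7, TCTAGT, was held by Dusp4 and Spred1, against 24.86% of genes. For the 5p arm the 7-base match AGCTCCT was held by Errfi1 alone among the members, against 15.21% of genes, and the 6-base match GCTCCT by Dusp4, Spry4, Spred1, Spred2 and Errfi1, 5 of 10, against 36.54%. The 7-base matches and the 3p match of Dusp4 are given with short flanks and the match in capitals, all on the plus strand. The match in Spred1 lies on chromosome 2 at 117178562 to 117178568, that in Dusp4 on chromosome 8 at 34819355 to 34819360, and that in Errfi1 on chromosome 4 at 150867866 to 150867872. Spred1 held a further TCTAGT at 117179704 to 117179709, which is not printed.
Spred1, 3p site: gtagttaactcATCTAGTtaataacgtttg
Dusp4, 3p site: gtgtgcaggagTCTAGTgactctgggaga
Errfi1, 5p site: gctggaggaacAGCTCCTgatagtgtgaga
A match is a description of these letters and not a measured binding site.

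The libraries held between 14309898 and 16383374 counted reads, and a member had between 133 and 6787 of them in a library. Levels are counts scaled to a fixed library size (CPM) after TMM scaling, with mean ± SD taken over the 3 libraries of a group (n = 3). Changes are log2 fold changes with overexpression over control from edgeR's quasi-likelihood test over the 11809 genes, called where the adjusted p (Benjamini-Hochberg) was under 0.05. Weighted by counted reads, mean gene length was 5091 to 5119 bases in the controls and 6021 to 6050 with overexpression, so that a trend with gene length ran between the groups. Most genes differed, 42.1% called higher and 43.9% lower, that is 4975 and 5184 genes, a split that became 3961 and 6288 with upper quartile scaling, under which the median over all genes went from -0.03 to -0.26. Of 12 markers of keratinocytes or of epithelia in general, 11 were tested, 5 called higher and 6 lower. Their summed level was 4994 to 5030 CPM in control cells and 3953 to 3974 CPM with overexpression. Krt14 (28.1 to 33.1 CPM in the controls and 35.8 to 42.0 CPM with overexpression), Itga6, Cdh1, Dsp and Sfn were the 5 called higher. The 6 called lower were Krt18, Krt8, Epcam, Itgb4, Perp and Trp63. Most of the summed level in control cells came from Krt18, Krt8 and Epcam, which are genes of simple epithelia and not particular to keratinocytes. Their means went from 1798 to 1070 CPM, from 1239 to 1088 CPM and from 831.8 to 314.9 CPM. The defining basal keratin Krt5 had no count in any library (3 counts, the limit that a count of 0 allows, equal 0.188 to 0.216 CPM), and Trp63, a regulator of stratified epithelia, had 0.88 to 1.4 CPM in control cells and at most 0.33 CPM with overexpression. The design line names melanocytes, and 10 melanocyte markers summed to 8.11 to 9.91 CPM in the controls and 7.53 to 8.87 CPM with overexpression. Of these Mitf and Pmel were tested and called lower, Tyr, Kit and Ednrb had no count, and Tyrp1 and Dct, too low to test, had 0 counts in the controls and 40 and 31 in the 3 overexpression libraries together. Fibroblast markers summed to 44.3 to 53.3 CPM in control cells and 16.4 to 17.3 CPM with overexpression (2 of 8 tested, both called lower, with Lum and Thy1 at 0). Most of this was Pdgfra alone, with means of 44.9 and 16.4 CPM. Immune markers summed to 18.4 to 21.3 and 4.74 to 6.53 CPM (2 of 6 tested, 1 called lower, with Cd3e and Adgre1 at 0). Most of this was Cd68 alone, with means of 19.1 and 4.54 CPM. Col1a2, Col3a1, Dcn, Ptprc and Itgam had at most 5 counts in a group. The 4 endothelial markers summed to under 1 CPM with Kdr at 0. The part of these cell type markers in the results below was not tested. In bulk RNA, fewer cells of a type and less RNA per cell cannot be told apart, and the labels name no batch.

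Of the 10 members 6 were called higher, 2 lower and 2 in neither direction. The share called, 8 of 10, stood beside 86.0% of all tested genes and so says nothing particular about the members. Errfi1, Dusp5, Spry4, Dusp4, Spred2 and Spred1 rose, and Spry1 and Dusp6 fell. In this fit Spry1 showed the largest change among the members and Dusp5 the largest rise. Without the length trend the change of Spry1 (-0.93) was smaller in size than those of Dusp5 (1.63), Errfi1 (1.22) and Dusp4 (1.00). The median log2 fold change of the members was 0.20 beside -0.03 for all tested genes, and their median size was 0.38 beside 0.72. In 7 of the 10 the size was below the median of all genes. In 5 members all overexpression libraries exceeded all controls and in 2 they lay under them, where 42.2% and 43.8% of all tested genes did so. A change beyond 1.5-fold was called for Errfi1, Dusp5 and Spry1, 3 of 10 members beside 50.4% of all genes, with 2 of them higher (23.4% of all genes) and 1 lower (27.0%).

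**Figure D1:**
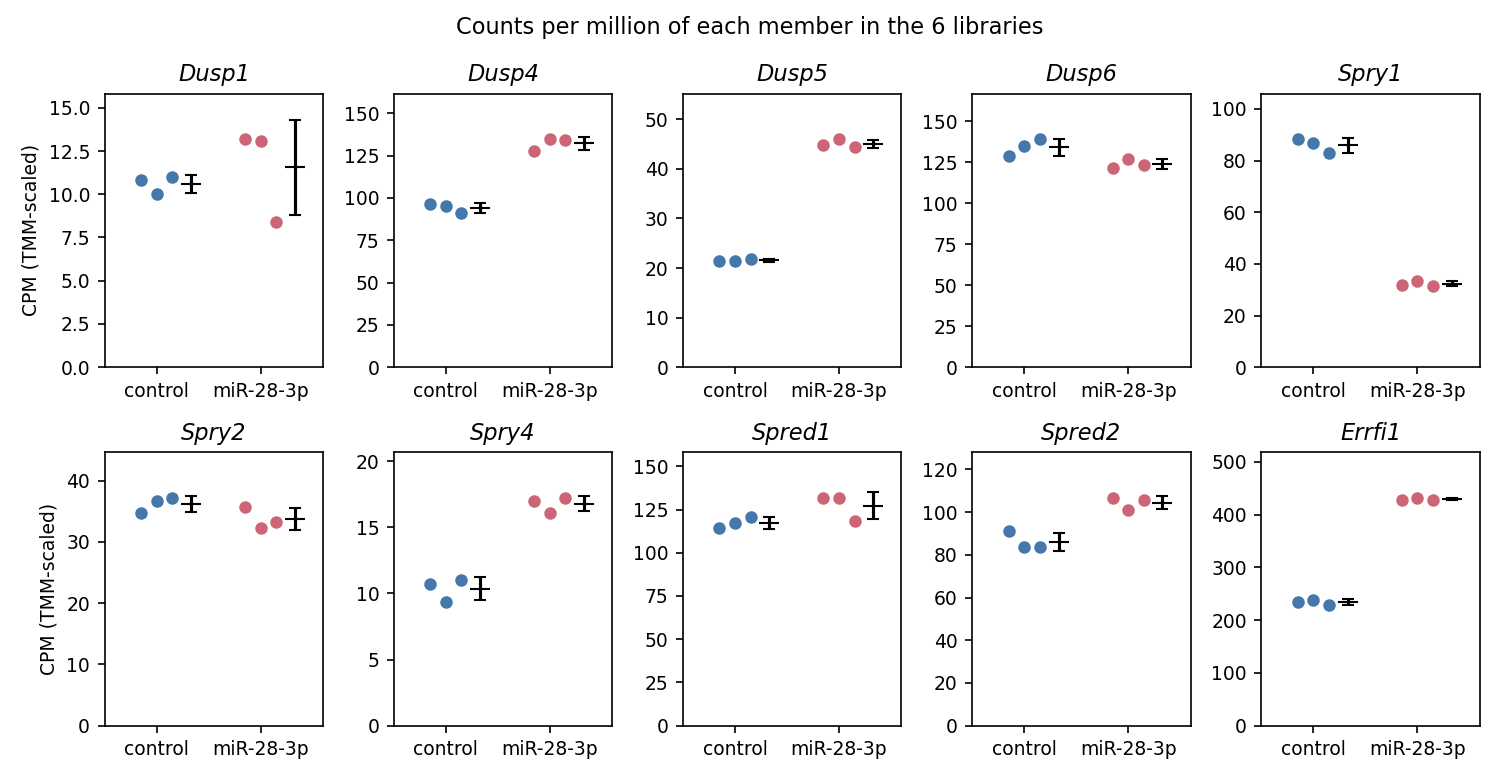
CPM after TMM scaling (y axis, from 0) of each of the 10 genes in the 3 control libraries (blue) and the 3 miR-28-3p overexpression libraries (red), with the mean ± SD in black. Spry1 drops from 85.9 to 32.3 CPM, Errfi1 climbs from 234.5 to 429.6 CPM, and the points of Dusp1, Spry2 and Spred1 overlap between the groups.

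The phosphatases were examined first. Dusp5, a nuclear phosphatase specific for ERK (ENSMUSG00000034765, chromosome 19, 53529109 to 53542431), had 21.4, 21.4 and 21.9 CPM in control cells and 44.9, 46.0 and 44.3 CPM with overexpression. Every overexpression library stood well above every control. Dusp5 rose 2.09-fold, a log2 fold change of 1.06 ± 0.07 (SE from the F statistic, edgeR adjusted p = 2.36e-21). The rise was called under all 17 alternatives tried and was larger, at 1.63 and 1.89, once a trend of the counts with gene length, or with length and GC content, was removed.

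Dusp4, a nuclear phosphatase of ERK and other MAP kinases (chromosome 8, 34807297 to 34819894), had 96.6, 95.04 and 90.9 CPM in the controls. With overexpression it had 128, 134.8 and 134.1 CPM, and the groups did not overlap. It rose 1.41-fold (log2 fold change 0.49 ± 0.04, edgeR adjusted p = 2.05e-17). The value was 0.26 with upper quartile scaling and 1.00 and 1.25 without the length trend and the length and GC trend, and the change did not pass the test against a 1.5-fold minimum.

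Dusp6, the cytoplasmic phosphatase of ERK and a standard readout of ERK output (chromosome 10, 99263231 to 99267489), was the most abundant phosphatase of the 4 in the controls. It had 128.8, 134.8 and 139.1 CPM there and 121.5, 127.1 and 123.3 CPM with overexpression. The highest overexpression library lay just under the lowest control. The fall was slight, at 1.08-fold (log2 fold change -0.11 ± 0.04, edgeR adjusted p = 0.00433). It was not called without control replicate 3 (edgeR adjusted p = 0.0531), and its direction turned to 0.32 and 0.15, called higher, without the length trend and the length and GC trend.

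Dusp1, the immediate early phosphatase that acts on p38, JNK and ERK (chromosome 17, 26505590 to 26562128), was scarce. Its levels were 10.8, 10.0 and 10.99 CPM in control cells and 13.2, 13.1 and 8.40 CPM with overexpression. Overexpression replicate 3 lay below all controls while the other two lay above them. The counts behind the overexpression values were 183, 198 and 133, and the exact 95% Poisson intervals, which cover counting error only, were 11.4 to 15.3, 11.3 to 15.02 and 7.03 to 9.96 CPM, so the last did not touch the others. The log2 fold change of 0.12 was not called (95% interval -0.14 to 0.37, edgeR adjusted p = 0.4). Without overexpression replicate 3 it was 0.31 and called (edgeR adjusted p = 0.0202), it was called at 0.51 and 0.69 without the length trend and the length and GC trend, and upper quartile scaling gave -0.11 without a call. Exons of its GENCODE model overlap those of Ergic1 on the opposite strand, and without the strand setting reads there cannot be assigned to either. Exons of Dusp5 and Spry1 also overlap opposite-strand exons, of AC137853.2 and Gm42922, which are not among the 21936 genes.

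Of the Sprouty genes 1 fell, 1 rose and 1 was not called. Spry1 (ENSMUSG00000037211, chromosome 3, 37639947 to 37644598), an inhibitor of receptor tyrosine kinase signalling, had 88.3, 86.7 and 82.8 CPM in control cells and 32.0, 33.3 and 31.5 CPM with overexpression. All 3 overexpression libraries lay far under the controls. Spry1 fell 2.66-fold (log2 fold change -1.41 ± 0.06, edgeR adjusted p = 3.69e-32). The fall was called under all 17 alternatives, and it shrank to -0.93 and -0.65 without the length trend and the length and GC trend.

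Spry4 (chromosome 18, 38586247 to 38601415), which also blocks the route from receptor to RAS, had 10.7, 9.37 and 10.99 CPM in control cells and 17.0, 16.1 and 17.2 CPM with overexpression. The groups were separate. It rose 1.62-fold (log2 fold change 0.70 ± 0.11, edgeR adjusted p = 4.18e-08), which did not pass against a 1.5-fold minimum (adjusted p = 0.1). The value was 0.47 with upper quartile scaling, and 0.83 and 0.90 without the length trend and the length and GC trend. In FPKM it was 0.59, 0.45 and 0.22 with a pseudocount of 0.1, 1 and 5. The pseudocount of 5 exceeded the mean FPKM of Spry4 in the controls (2.25) and with overexpression (3.42).

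Spry2, the paralog best known for binding the ubiquitin ligase Cbl (chromosome 14, 105891947 to 105896819), had 34.7, 36.7 and 37.2 CPM in the controls. With overexpression it had 35.8, 32.3 and 33.2 CPM, and the groups overlapped. Its log2 fold change of -0.10 was not called (95% interval -0.24 to 0.03, edgeR adjusted p = 0.151). It was called lower at -0.33 with upper quartile scaling and at -0.20 with library totals only, and called higher at 0.54 and 0.17 without the length trend and the length and GC trend.

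The SPRED genes, whose proteins bring the RAS-inactivating protein neurofibromin to the membrane, changed little. Spred2 (chromosome 11, 19924375 to 20024026) had 91.1, 83.6 and 83.8 CPM in control cells and 106.8, 101.2 and 105.5 CPM with overexpression, without overlap. It rose 1.21-fold (log2 fold change 0.28 ± 0.04, edgeR adjusted p = 6.07e-08), a call lost with upper quartile scaling (0.05, adjusted p = 0.301). Spred1 (chromosome 2, 117121374 to 117182279), the member with the 7-base 3p match, had 114.1, 117.1 and 120.5 CPM in control cells and 131.9, 131.7 and 118.2 CPM with overexpression. Its overexpression replicate 3 lay within the range of the controls. The rise of 1.09-fold (log2 fold change 0.12 ± 0.04, edgeR adjusted p = 0.00602) became 0.02 and was not called with library totals only (adjusted p = 0.572), and it was called lower at -0.11 with upper quartile scaling and at -0.27 without the length and GC trend. In the authors' deposited table the adjusted p of Spred1 was 0.0508.

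Errfi1 (ENSMUSG00000028967, chromosome 4, 150853919 to 150868892) was the most abundant of the 10 per gene length in both groups. It had 235.3, 239 and 229.2 CPM in control cells and 427.6, 432.4 and 428.7 CPM with overexpression. The overexpression libraries were close to each other (coefficient of variation 0.588%) and stood well above the controls. Errfi1 rose 1.83-fold (log2 fold change 0.87 ± 0.03, edgeR adjusted p = 1.24e-38), and the rise was called under all 17 alternatives, with values from 0.64 to 1.22.

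**Figure D2:**
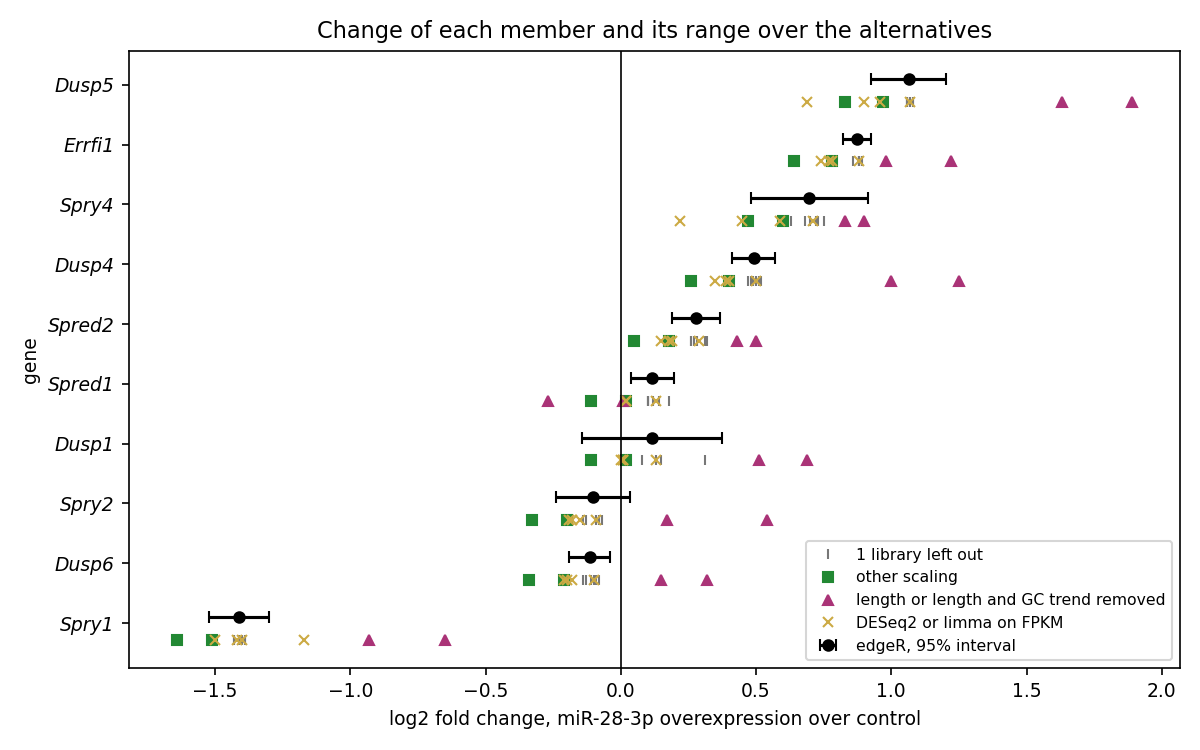
Log2 fold change with overexpression over control (x axis) for each of the 10 genes, with edgeR's 95% interval in black and, just below it, the values under other scalings, tests, trend removals and with 1 library left out; the values of the fit with a replicate block, without the filter and against a minimum fold are not drawn. All points of Errfi1, Dusp5, Spry4, Dusp4 and Spred2 lie to the right of 0 and all of Spry1 to the left, while those of Dusp1, Dusp6, Spry2 and Spred1 lie on both sides.

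The order of the members was compared per gene length, in the deposited FPKM (counted reads scaled by gene length and library total). In the controls Errfi1 led with 67.6 ± 1.46 FPKM, followed by Dusp6 (44.2 ± 1.63), Dusp4 (35.5 ± 1.16), Spry1 (30.5 ± 1.06), Spred2 (19.3 ± 0.99), Spry2 (17.9 ± 0.615), Spred1 (17.8 ± 0.452), Dusp5 (8.99 ± 0.124), Dusp1 (3.31 ± 0.162) and Spry4 (2.25 ± 0.189). Only the neighbours Spry2 and Spred1 overlapped in range there. With overexpression Errfi1 had 116.1 ± 0.685 FPKM and Dusp4, at 46.7 ± 1.28, stood above Dusp6 at 38.3 ± 0.868. Spred2 (21.9 ± 0.621), Spred1 (18.2 ± 1.15), Dusp5 (17.6 ± 0.345), Spry2 (15.7 ± 0.839), Spry1 (10.8 ± 0.318), Spry4 (3.42 ± 0.121) and Dusp1 (3.38 ± 0.803) followed. The neighbours Spred1 and Dusp5, and Spry4 and Dusp1, overlapped in range. Spry1 thus went from the fourth place to the eighth and Dusp5 from the eighth to the sixth.

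**Figure D3:**
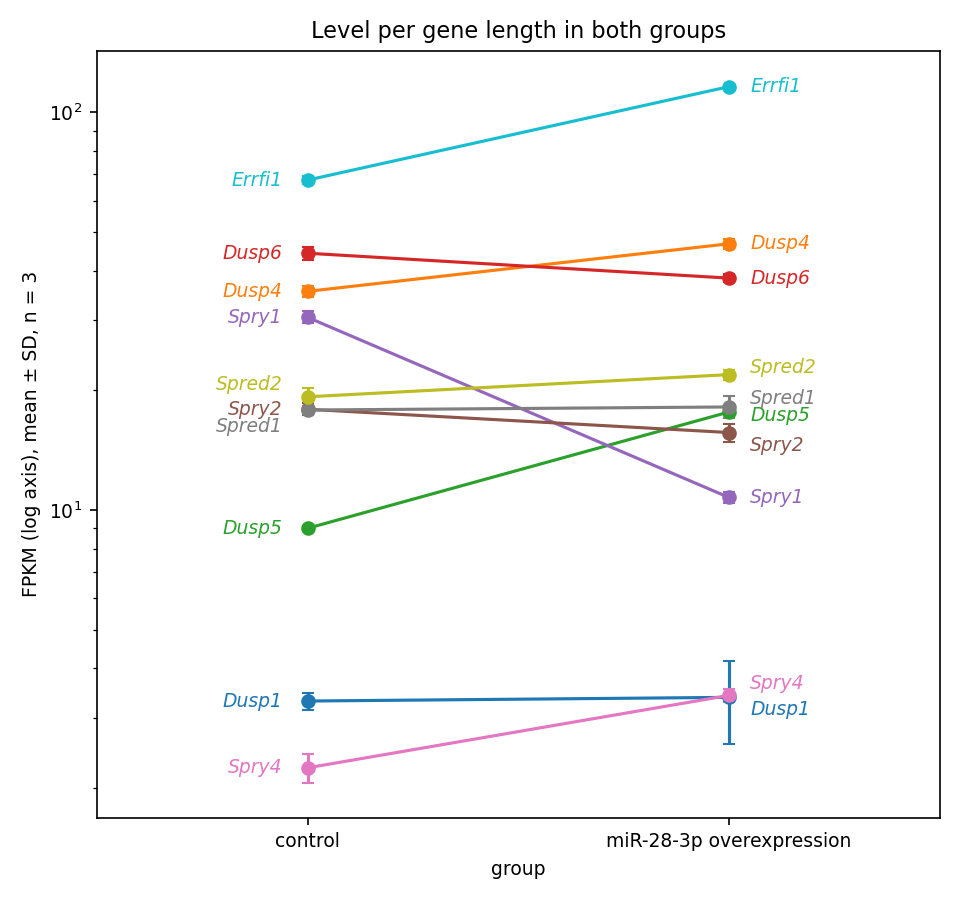
Level per gene length in FPKM (log axis), mean ± SD over 3 libraries, of the 10 genes in the control and overexpression groups. The lines of Dusp4 and Dusp6 cross, and that of Spry1 runs from 30.5 to 10.8 FPKM, below those of Spred2, Spred1, Spry2 and Dusp5.

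Shares within a family do not depend on how libraries are scaled against each other, while the summed FPKM do. The trend with gene length can move both, and neither was recomputed without it. Among the 3 Sprouty genes Spry1 made up 61.7, 60.4 and 58.6% of the summed FPKM in the controls and 34.7, 37.8 and 35.7% with overexpression. Spry2, at 33.8, 35.6 and 36.7% in the controls, took the larger part with overexpression, at 54, 51.1 and 52.4%. Its own level was not higher, with mean FPKM of 17.9 in the controls and 15.7 with overexpression. Shares of a family add up to the whole, so they are not independent results. Spry4 went from 4.56, 3.99 and 4.75% to 11.3, 11.2 and 11.9%, a change of 7.02 points that was 12.45 points in shares of summed CPM. The summed FPKM of the 3 genes was 50.7 ± 0.481 in the controls and 29.8 ± 0.795 with overexpression.

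Among the 4 phosphatases Dusp6 made up 48.1 ± 1.45% of the summed FPKM in the controls and 36.1 ± 0.0734% with overexpression. Dusp4 went from 38.6 ± 1.5% to 44.1 ± 0.826%, and Dusp5 from 9.77 ± 0.103% to 16.6 ± 0.194%. The share of Dusp1 was 3.59 ± 0.179% and 3.18 ± 0.743%, with overlap. The summed FPKM of the phosphatases was 92 ± 0.628 and 106.1 ± 2.36. Of the 2 SPRED genes Spred2 made up 51.9 ± 1.82% and 54.7 ± 1.89%, also with overlap. In 9 of these 12 shares and sums the groups were fully separate, each with a two-sided exact permutation p = 0.1, the lowest possible with groups of 3 (0.133 adjusted over the 12); the exact permutation p was 0.7 for Dusp1 and 0.2 for each SPRED share.

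**Figure D4:**
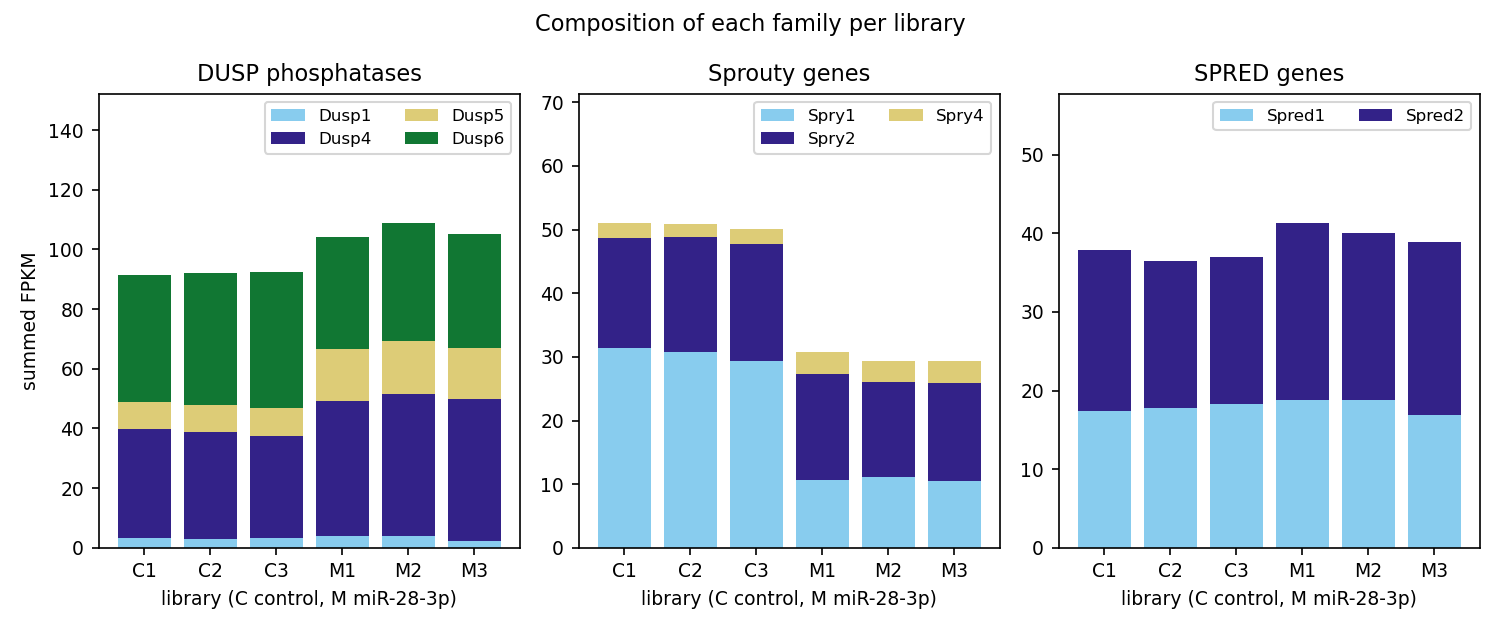
Summed FPKM (y axis, from 0) of the DUSP phosphatases, Sprouty genes and SPRED genes in the control libraries (C1 to C3) and the overexpression libraries (M1 to M3), split by gene. The Sprouty bars go from 50.7 to 29.8 FPKM with most of the loss in Spry1, and in the phosphatase bars the Dusp5 and Dusp4 segments widen while Dusp6 narrows.

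Windows before the RefSeq start sites were searched for short motifs of transcription factors and for TATAAA. Whether a motif bears on a change was not tested. Of the 10 members 8 had an entry in the promoter table (GRCm38.p6), and the 250 bases before each start were read on both strands. Dusp5 held 2 adjoining CArG boxes, the motif of serum response factor (CC, 6 letters of A or T, GG). Any CArG box, single or not, was held by 1.47% of the 32851 promoters, and adjoining pairs were not counted. Errfi1, which rose, and Dusp1, which was not called, each held the cyclic AMP response element TGACGTCA, against 1.55% of promoters. Errfi1 also held TATAAA (12.37% of promoters) and Dusp1 CACGTG (6.02%). The letters CGGAAG, the core bound by ETS factors, stood before Dusp6, Spred1 and Spred2 (13.59% of promoters), and the AP-1 site TGACTCA before 0 of the 8 (4.46%). The match of Spred2 lies before its RefSeq start but within an exon of its GENCODE model. These 3 windows are shown for the members whose motif is rare among promoters, with the matches in capitals, from chr19:53529043-53529092 (plus strand), chr4:150854999-150855057 (plus strand) and chr17:26508583-26508635 (minus strand).
Dusp5: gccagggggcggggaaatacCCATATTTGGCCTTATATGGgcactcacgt
Errfi1: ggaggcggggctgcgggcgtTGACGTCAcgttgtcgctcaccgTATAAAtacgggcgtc
Dusp1: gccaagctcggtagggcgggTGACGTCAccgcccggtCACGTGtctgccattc
The CArG boxes of Dusp5 lie 82 to 63 bases before the start, and the response elements of Errfi1 and Dusp1 51 to 44 and 143 to 136 bases before it.

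Over all tested genes 42.1% were called higher and 43.9% lower, and the lists of other pathway genes are given beside those shares. Of 7 other MAPK phosphatases 6 were tested, and 5 rose, 0 fell and Dusp10 was not called (log2 fold change -0.04; edgeR adjusted p = 0.627). Their median was 0.71. Dusp9, an ERK phosphatase of the cytoplasm, had 24.0, 25.4 and 21.5 CPM in control cells and 107.3, 111.1 and 110.4 CPM with overexpression (log2 fold change 2.21, edgeR adjusted p = 7.95e-42). Dusp7, of the same cytoplasmic group as Dusp6, rose from 82.8 ± 0.462 to 155.9 ± 4.22 CPM (SD, n = 3; 0.91). Dusp8, a phosphatase of JNK and p38, rose from 10.5 ± 0.443 to 23.3 ± 3.13 CPM (1.15).

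Of 15 other inhibitors 14 were tested, 6 rising, 5 falling and 3 (Cblb, Flrt3 and Nf1) not called, with a median of 0.09, and the split was near that of all genes. Rasa1, a GTPase-activating protein of RAS, rose from 95.6 ± 3.74 to 171.9 ± 6.45 CPM, Ptpn12, a tyrosine phosphatase, from 83.1 ± 6.77 to 155.6 ± 1.81 CPM, and Lrig1, a negative regulator of ERBB receptors, from 263.7 ± 3.69 to 378.0 ± 6.37 CPM. Socs3, a feedback inhibitor of cytokine receptors, fell from 55.1 ± 1.82 to 17.8 ± 0.937 CPM. Spred3, another SPRED paralog, fell from 46.2 ± 2.34 to 29.3 ± 1.83 CPM (log2 fold change -0.66). Pebp1 fell from 425.1 ± 8.14 to 348.1 ± 10.2 CPM, and its direction turned without the length trend (0.41).

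In the RAS-ERK list of kinases and their activators 10 of 21 genes rose, 9 fell and Shc1 and Ksr1 were not called (median -0.03). Mapk3, which encodes the ERK kinase ERK1, fell from 241.5 ± 8.96 to 69.9 ± 2.52 CPM (log2 fold change -1.79). Ptpn11, the phosphatase SHP2 that passes the signal to RAS, rose from 187.9 ± 6.45 to 440.2 ± 3.77 CPM, and Nras from 179.3 ± 3.30 to 286.4 ± 2.66 CPM. Rras fell from 102.0 ± 5.08 to 27.0 ± 2.51 CPM and the kinase Araf from 103.0 ± 6.37 to 67.5 ± 4.49 CPM. In the list of stress-activated kinases 5 of 12 rose and 4 fell. Map3k7, or TAK1, rose from 70.8 ± 1.47 to 168.9 ± 5.51 CPM, Map2k3 from 110.4 ± 4.07 to 231.8 ± 6.20 CPM and Mapk14, or p38 alpha, from 95.6 ± 3.70 to 154.0 ± 4.25 CPM. Mapk13, or p38 delta, fell from 158.8 ± 4.84 to 52.0 ± 4.34 CPM, Map3k5 from 80.1 ± 0.948 to 45.0 ± 2.03 CPM, and the p38 target Mapkapk2 from 192.7 ± 3.66 to 158.1 ± 3.61 CPM, the last with a direction that turned without the length trend (0.17).

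Of 20 genes commonly induced by ERK 12 rose and 8 fell, with a median of 0.47, where the table as a whole was also divided (42.1% higher and 43.9% lower). Ccnd1, the cyclin D1 gene, rose from 360.9 ± 11.2 to 1346 ± 8.03 CPM, Epha2, a receptor tyrosine kinase, from 171.7 ± 4.58 to 542.1 ± 3.60 CPM, and Plaur, the urokinase receptor, from 65.2 ± 3.08 to 140.2 ± 5.90 CPM. Junb, an AP-1 subunit, fell from 586.7 ± 16.6 to 238.3 ± 7.43 CPM, Phlda1 from 37.7 ± 3.89 to 12.8 ± 0.982 CPM, and Ier2 from 94.4 ± 5.16 to 57.1 ± 1.07 CPM, a fall that vanished without the length trend (0.01) and was a called rise without the length and GC trend (0.40).

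At the receptors, 6 of 10 tested ERBB genes rose and 3 fell. The ligands Hbegf, Tgfa and Nrg1 rose from 59.4 ± 2.27 to 118.8 ± 3.66, from 74.1 ± 3.21 to 116.2 ± 1.32 and from 9.41 ± 0.373 to 33.7 ± 4.96 CPM. Erbb3 fell from 51.4 ± 2.73 to 27.7 ± 0.879 CPM and Erbb2 from 83.2 ± 2.86 to 64.4 ± 1.57 CPM, the latter a call with the opposite direction without the length and GC trend (0.10). Egf fell from 2.07 ± 0.379 to 1.22 ± 0.222 CPM (edgeR adjusted p = 0.0233), a call lost in DESeq2 (adjusted p = 0.0817), in limma with a pseudocount of 1 or 5, against a 1.5-fold minimum, and without control replicate 1 or 2 or overexpression replicate 1 or 3 (edgeR adjusted p from 0.0583 to 0.0945). In the list of FGF genes and Met, 4 of 8 rose and 4 fell. Fgfr2 rose from 12.9 ± 0.877 to 111.1 ± 6.59 CPM, Met, the receptor of hepatocyte growth factor, from 64.3 ± 3.76 to 294.4 ± 2.59 CPM and Fgfbp1, which releases FGFs from the matrix, from 13.5 ± 1.43 to 39.6 ± 2.1 CPM. Fgfr1 fell from 12.7 ± 1.90 to 0.339 ± 0.131 CPM, Fgf7 from 2.65 ± 0.348 to 1.10 ± 0.400 CPM and Fgf1 from 1.53 ± 0.582 to 0.559 ± 0.313 CPM.

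**Figure D5:**
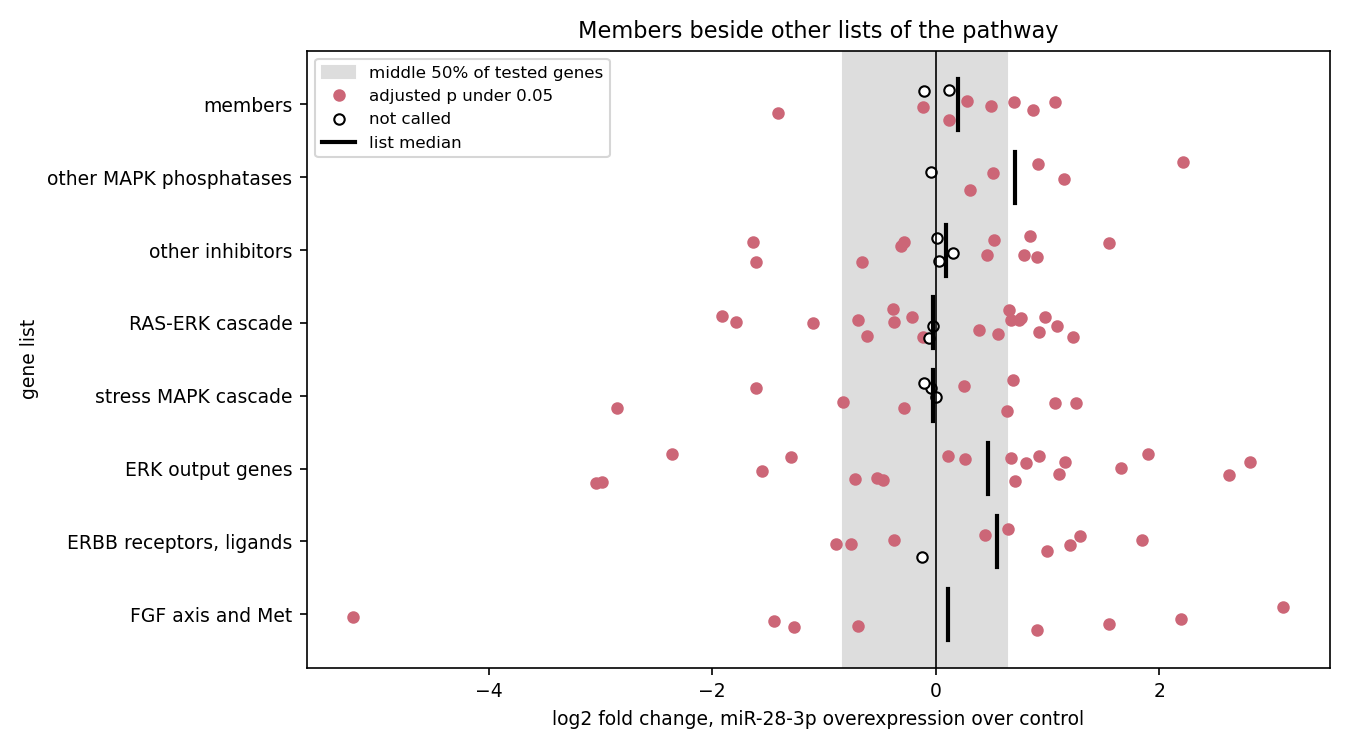
Log2 fold change with overexpression over control (x axis) of every tested gene in 8 lists of the pathway (rows, points spread vertically for legibility), with list medians as bars and the middle 50% of all tested genes, -0.83 to 0.64, in grey. Filled points were called at an adjusted p under 0.05. The members lie between -1.41 and 1.06, and the medians run from -0.03 for the RAS-ERK list to 0.71 for the other MAPK phosphatases.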

How the data were processed

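Poly(A) RNA of 3 control and 3 overexpression libraries (TruSeq, per the labels' protocols) was counted by the authors with HISAT2, HTSeq and DESeq, per the submitters' processing notes, which name mm9; parameters and strand setting: not given in the sources used here. Gene coordinates in the deposited table match GENCODE M21 (GRCm38) for 21617 of 21894 genes matched by ID. The deposited read counts are whole numbers, and the deposited FPKM equals the count divided by gene length and library total. The authors' deposited table also holds log2 fold changes and p-values for groups named only A and B, of which 1 adjusted p is quoted.

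Counts were filtered (filterByExpr, minimum count 10), TMM-scaled and tested in edgeR 4.0.16 with a robust quasi-likelihood fit (R 4.3.3), without a replicate block; p-values were adjusted over all 11809 tested genes. Standard errors are the log2 fold change over the root of F. The script was checked on simulated data in which few genes changed and no length trend ran. That setting differs from these data, where most genes differed. Family shares used deposited FPKM and an exact permutation test. Alternatives were upper quartile or total scaling, no filter, a minimum fold of 1.5, removal of a length or length and GC trend, a replicate block, leaving out each library, DESeq2 1.42.0, and limma 3.58.1 on log2 FPKM with pseudocounts 0.1, 1 and 5. Counts per gene differed within groups by more than sampling noise. Beside the members, up to 3 called genes per direction with the smallest p are named from each list, except a gene that is not reported here. The members and lists were chosen with earlier results of these data known.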

Additional observations from a re-analysis of the deposited data

How the results depend on the processing

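Dusp5 (0.69 to 1.89), Errfi1 (0.64 to 1.22) and Spry1 (-1.64 to -0.65) kept their direction and call under all 17 alternatives. With upper quartile scaling the log2 fold change was -0.11 for Dusp1 (edgeR adjusted p = 0.405), -0.33 for Spry2, -0.11 for Spred1 and 0.05 for Spred2, and 4 members were called lower. With library totals only it was -0.20 for Spry2 and 0.02 for Spred1. Without the length trend it was 0.51 for Dusp1, 0.32 for Dusp6, 0.54 for Spry2 and 0.01 for Spred1, and 1 member was called lower. Without the length and GC trend it was 0.69, 0.15, 0.17 and -0.27 for the same 4 genes. Against a minimum of 1.5-fold, 5947 genes were called, with 2 members higher and 1 lower, and the calls of Dusp4 (0.49), Dusp6 (-0.11), Spry4 (0.70), Spred1 (0.12) and Spred2 (0.28) were lost. With limma on FPKM at pseudocounts of 1, 0.1 and 5, Spry2 was called lower at -0.18, -0.19 and -0.15, and Spred1, at 0.02 each time, was not called. Leaving out 1 library in turn gave 0.02 to 0.31 for Dusp1 and -0.14 to -0.08 for Dusp6, with 1 to 2 members called lower. In summed CPM the change in share was 6.13 points for Dusp5 (6.86 in FPKM), 13.4 for Spry2 (17.1) and 12.45 for Spry4 (7.02). Of the other named genes, directions turned without the length trend for Ier2 (0.01), Mapkapk2 (0.17) and Pebp1 (0.41), and without the length and GC trend for Ier2 (0.40), Mapkapk2 (0.50), Pebp1 (0.63) and Erbb2 (0.10). The cause was not tested. Of 663 values of 39 other named genes under the alternatives, 642 kept direction and call.

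With the replicate number as a block, 10116 genes and 8 members were called, 6 higher and 2 lower, and no member's call changed. Deviations of same-numbered libraries correlated at -0.00479, -0.00307 and -0.0309, and not every library correlated best with its own number. No shared deviation by number was thus seen, which cannot show whether same-numbered libraries were prepared together. Dusp1 and Spry4 rested on the fewest reads, 133 to 198 and 142 to 273 counts per library.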
